A study of Mus musculus with 2 samples.

Results

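The genes of the ATF4 program were followed in Neuro2a cells, a mouse neuroblastoma line, after knockdown of CPEB1. The program was taken as a fixed list of 43 genes that ATF4 is known to induce or to work with. The list was chosen with earlier results of these data known. Its members were found as every probe set whose annotation gave only 1 of these symbols, in its current or older form. Of the 43 genes, 42 had such a probe set, among 18202 genes with one on the array, and they were measured by 93 of 45101 probe sets. Pycr1, an enzyme of proline synthesis, had none in the annotation used. The groups were 1 array of cells given control siRNA (siControl) and 1 array of cells given siRNA against the coding region of Cpeb1 (siCPEB1), both wild-type Neuro2a cells with no other treatment named, transfected with Lipofectamine RNAiMAX for 24 h. The arrays were Affymetrix Mouse Genome 430 2.0 arrays, hybridized with RNA labelled from 100 ng of total RNA. With 1 array per condition no culture was repeated, so the ratios carry no p-value and hold for these 2 arrays alone. In RNA from a whole culture, fewer cells of a kind and less RNA per cell cannot be told apart.

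ATF4 is a basic leucine zipper transcription factor at the center of the integrated stress response. Kinases that sense amino acid shortage, unfolded protein in the endoplasmic reticulum, double-stranded RNA or heme shortage phosphorylate the initiation factor eIF2, which lowers general protein synthesis while the Atf4 mRNA, which carries upstream open reading frames, is translated more. ATF4 then pairs with C/EBP proteins on C/EBP-ATF response elements and induces genes of amino acid synthesis, amino acid uptake and tRNA charging, together with further transcription factors and feedback regulators. Growth signaling through mTORC1 also raises ATF4, so the same genes are active in dividing cells without stress.

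The response element has the core TGATGNAA, which was searched on both strands of the promoter windows in RefSeq (GRCm38.p6, 250 bases before to 50 bases after a start site). Of 37 members with a window, 14 held it, whereas 4.51% of 27025 genes did. The stricter TGATGCAA, which is contained in the first motif, was in 11 of the 37 members and in 1.03% of genes. Since the members are known targets of ATF4, these shares are not independent of how the list was made. The windows below show 7 members with the core, chosen because their ratios run from among the lowest of the program to above 0. Capitals mark the core as it reads in the direction of the gene, so that TTGCATCA is TGATGCAA on the other strand.
Trib3, chr2:152344029-152344056, minus strand: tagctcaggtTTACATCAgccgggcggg
Atf3, chr1:191183426-191183453, minus strand: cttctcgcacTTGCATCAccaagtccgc
Slc7a11, chr3:50443662-50443689, minus strand: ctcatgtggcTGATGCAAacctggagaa
Chac1, chr2:119351039-119351066, plus strand: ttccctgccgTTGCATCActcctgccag
Asns, chr6:7693215-7693242, minus strand: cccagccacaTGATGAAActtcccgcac
Slc1a4, chr11:20332700-20332727, minus strand: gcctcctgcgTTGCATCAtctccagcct
Iars, chr13:49682127-49682154, plus strand: actgtcagtaTTGCATCAcctccagacg
The core starts 110 bases before the start site in Atf3, 193 in Chac1, 66 in Slc7a11, 23 in Asns and 4 in Slc1a4, and 14 bases after it in Trib3 and 7 in Iars. A second core on the other strand lies 47 bases before the start site of Slc7a11.

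Across the arrays, Cpeb1, the target of the siRNA, gave signals of 302 (siControl) and 38.5 (siCPEB1) at its 1 probe set, which is 7.86-fold lower. The 75th percentile of the deposited signals was 154 in siControl and 159 in siCPEB1. Of 13 markers of sympathetic and neuroblastoma cells in the annotation 10 passed the signal filter, among them Tubb3 and Hand2, whereas Th, Nefl and Nefm were too dim. Phox2a, Gata3, Isl1 and Dbh were higher in siCPEB1 by more than 2-fold, although the other passing probe set of Dbh was 1.76-fold higher. Stmn2 (log2 ratio -0.30) and Gap43 (-0.33) were the 2 of the 10 with a ratio below 0. Of 32 fibroblast, glial, haematopoietic and endothelial markers 9 passed. The summed signal of the passing markers went from 11935 to 14642 for sympathetic and neuroblastoma cells. It went from 165 to 376 for fibroblasts (Col1a2 went from 42.3 to 309 and Pdgfrb from 97.1 to 26.9). It went from 23.0 to 45.4 for glia, from 75.9 to 102 for haematopoietic cells and from 53.9 to 137 for endothelium. The part of these changes in the results was not tested. The glial sum is Mbp alone. Its brightest passing probe set went from 58.1 to 54.8, while its other passing ones were higher in siCPEB1. Vwf (endothelium) and Tyrobp (haematopoietic) were below the array median in siControl and reached it in siCPEB1 only. A marker that passes in this way can only rise. Pecam1 (endothelium), Laptm5 and Csf1r (both haematopoietic) were above the array median on both arrays. Their log2 ratios were 0.72, 0.43 and 0.13. The probe set that represents Mbp was also above it on both arrays (0.98). Whether the glial, haematopoietic and endothelial sums reflect a gain of such cells was not tested. The 24 poly-A control probe sets had a mean log2 ratio of -0.18 (SD 0.185), against a median of 0.05 over all genes. The 18 hybridization control probe sets had a mean of -0.13 (SD 0.075), so a negative mean was not particular to the poly-A controls. Poly-A controls are transcripts spiked into the RNA before labelling.

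Most genes of the ATF4 program had a lower signal in siCPEB1. Probe sets entered the counts if they were at or above the array median on 1 array or both and not below the 25th percentile on either, and 1 probe set represented each gene. In this way 41 members were measured, and 6 of them were lower by more than 2-fold (Cebpb, Ddit4, Trib3, Ddit3, Wars and Ppp1r15a), while none was higher. Over all 11554 genes measured, 3.49% were lower and 4.99% were higher by more than 2-fold. The log2 ratio was below 0 in 37 of the 41 members, which is 90.2%, against 46.2% of all genes. The median log2 ratio of the members was -0.37, and that of all genes was 0.05. Of the 41 members, 13 lay in the lowest 10% of all genes by log2 ratio and 29 in the lowest 25%. Since the members were chosen with earlier results of these data known, these counts are a description and not an independent result.
Members were bright genes, with 28 of the 41 in the brightest 20% of all genes. Among those bright genes 2.03% were lower and 1.13% higher by more than 2-fold, 52.4% had a log2 ratio below 0, and the median was -0.02. The 28 bright members had a median log2 ratio of -0.36, and 5 of them were lower by more than 2-fold and none was higher.

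**Figure D1:**
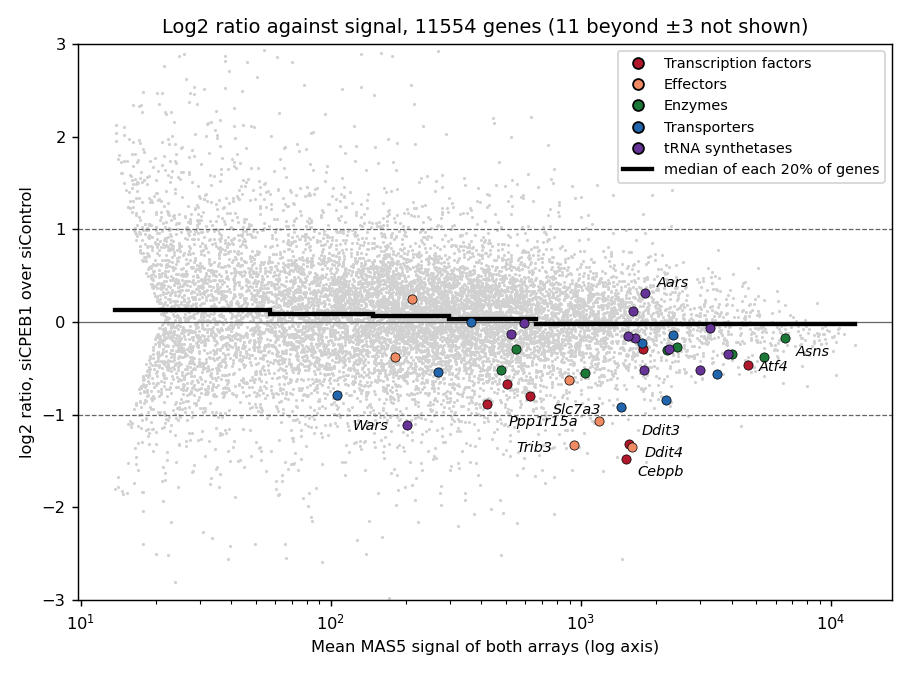
Log2 ratio of siCPEB1 over siControl (y axis) against the mean MAS5 signal of both arrays (x axis, log scale) for each gene measured (grey) and for the 41 members (coloured by role), with dashed lines at 2-fold and black bars at the median of each 20% of genes by signal; 11 genes beyond 3 are outside the plot. The members sit mostly at high signal and below the black bars, with Cebpb, Ddit3, Ddit4 and Trib3 lowest and Aars above 0.

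Of the 7 transcription factors of the program, Cebpb and Ddit3 were lower by more than 2-fold, and each of the others had a log2 ratio below 0. Atf4 itself had signals of 5387 in siControl and 3904 in siCPEB1, a log2 ratio of -0.46, and its other passing probe set went from 4113 to 2640 (-0.64). A further Atf4 probe set was too dim to count (1.28 and 1.73). Thus the Atf4 mRNA differed less between the arrays than did several of its targets, and its protein was not measured. Cebpb, which encodes the C/EBP-beta partner of ATF4, had the lowest ratio of the program. Its signals were 2240 and 802 at one probe set and 762 and 283 at the other, which is 2.79-fold and 2.69-fold lower, and it ranked 127 from the lowest among all 11554 genes. Ddit3, which encodes CHOP, the factor that ATF4 induces and that promotes cell death under lasting stress, went from 2213 to 888 and, at a dimmer probe set, from 59.4 to 25.8, which is 2.49-fold and 2.30-fold lower. Both probe sets of each of these genes were past 2-fold.
Atf3, a stress-induced factor that also represses transcription, went from 545 to 294 (log2 ratio -0.89). Atf5, a relative of ATF4 that is also under translational control, went from 790 to 456 (-0.79). Cebpg, which encodes a C/EBP protein that forms dimers with ATF4, had log2 ratios of -0.67, -0.76 and -0.30 at its 3 probe sets. None of these 3 genes was past 2-fold. Nupr1, a small stress-induced chromatin protein, had log2 ratios of -0.29 and -0.03, the smallest difference of the 7 factors. The median log2 ratio of the 7 was -0.79.

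Of the 6 effectors measured, 3 were lower by more than 2-fold. Ddit4, which encodes the mTORC1 inhibitor REDD1, has 1 probe set, where the signal went from 2287 to 901, a 2.54-fold difference. Trib3, a pseudokinase that binds ATF4 and CHOP and restrains them, went from 1345 to 538 and from 731 to 361, which is 2.50-fold and 2.02-fold lower. Ppp1r15a, which encodes GADD34, the phosphatase subunit that reverses eIF2 phosphorylation, went from 1600 to 766, which is 2.09-fold lower, a call that was lost when the arrays were scaled to the poly-A controls (log2 ratio -0.88). These 3 genes ranked 171, 182 and 336 from the lowest.
Chac1, which degrades glutathione, went from 1085 to 704 (log2 ratio -0.62). Stc2, a secreted glycoprotein of the stress response, had log2 ratios of -0.37, -0.33 and -0.46 at its 3 probe sets. Sesn2, a leucine sensor that restrains mTORC1, had opposite signs at its 2 probe sets, 192.5 to 229 (0.25) at the one that represents it and 193 to 157 (-0.30) at the other. Vldlr, a lipoprotein receptor, was too dim at all 6 probe sets, with siControl signals of 2.07 to 6.83, and gives no ratio. The median log2 ratio of the 6 effectors measured was -0.84.
Near the threshold, Ppp1r15a (log2 ratio -1.06) lay just past 2-fold, and Slc7a3 (-0.91) and Atf3 (-0.89) just short of it.

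**Figure D2:**
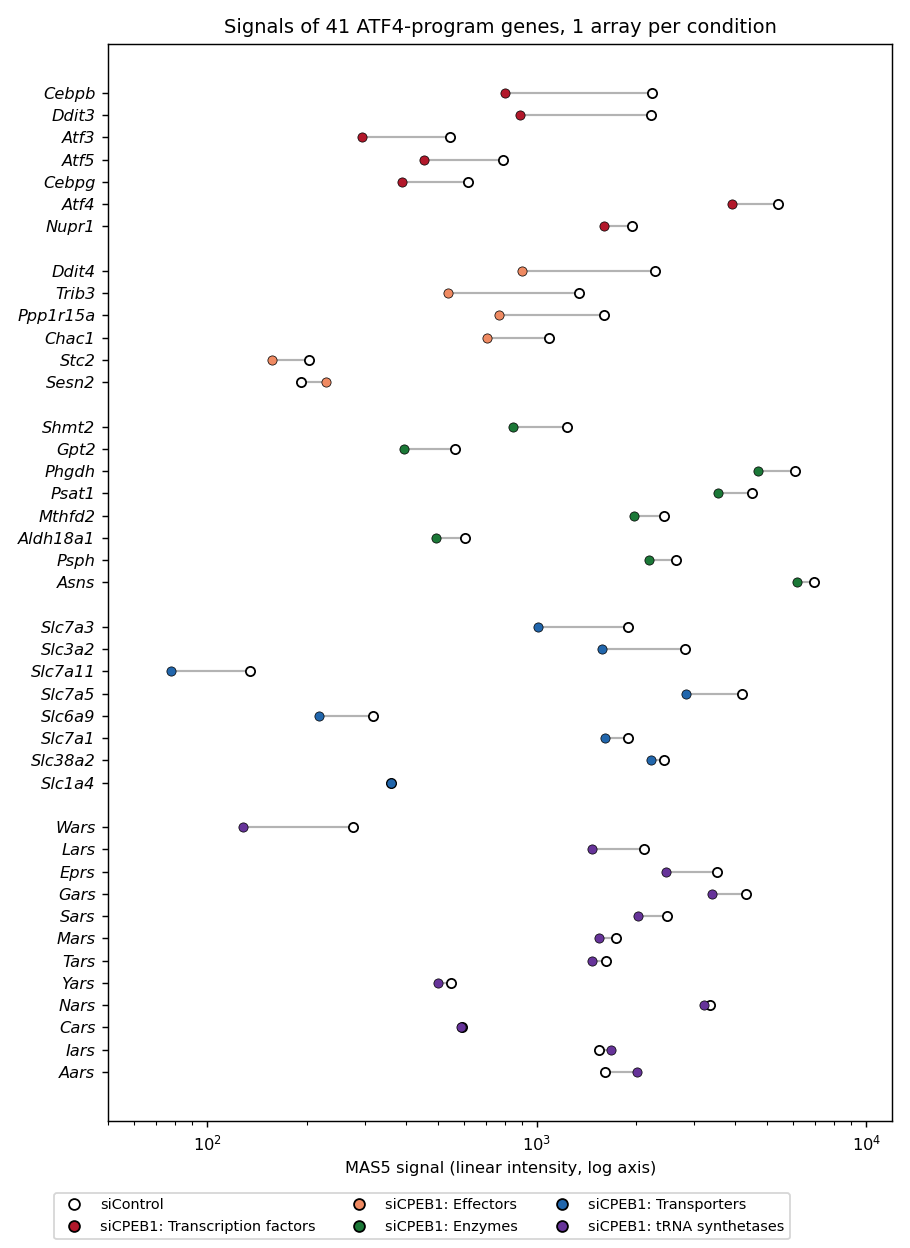
MAS5 signal (x axis, log scale) of each of the 41 measured members in siControl (open circles) and siCPEB1 (filled circles, coloured by role), 1 array per condition, at its representing probe set. The longest lines belong to Cebpb, Ddit3, Ddit4, Trib3, Ppp1r15a and Wars, and the filled circle lies to the right of the open one in Sesn2, Iars and Aars.

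The amino acid transporters had a median log2 ratio of -0.55, with none of the 8 past 2-fold. The lowest were Slc7a3, a carrier of arginine and lysine, which went from 1889 to 1004 (log2 ratio -0.91), and Slc3a2, the heavy chain that brings several light chains to the membrane, which went from 2810 to 1572 (-0.84). Slc7a11, the cystine and glutamate exchanger that is a light chain of Slc3a2, went from 134 to 77.8 and from 48.6 to 27.6, with log2 ratios of -0.79 and -0.82. Slc7a5, the large neutral amino acid carrier and another light chain of Slc3a2, went from 4183 to 2840 (-0.56). The heavy chain and both light chains were therefore lower together, at each passing probe set.
The remaining transporters differed less. Slc6a9, a glycine transporter, had log2 ratios of -0.54 and 0.17 at its 2 probe sets. Slc7a1, another carrier of cationic amino acids, had -0.23 at its brightest probe set and -0.34 and -0.07 at the others. Slc38a2, the SNAT2 carrier that is induced by amino acid shortage, had -0.14, -0.37 and -0.42. Slc1a4, a carrier of alanine, serine and cysteine, had signals of 362 and 362 and a log2 ratio of 0.00, with -0.37 and 0.02 at its other probe sets.

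None of the enzymes of amino acid and folate metabolism was past 2-fold. All 8 measured had a log2 ratio below 0 at the representing probe set, from -0.54 to -0.17, with a median of -0.32. The serine pathway was represented by Phgdh, its first enzyme, which went from 6090 to 4698 (log2 ratio -0.37, and -0.45 to -0.59 at 3 other probe sets), Psat1 (-0.34 and -0.22) and Psph (-0.27). All 4 Phgdh probe sets carry the _x_at suffix, which marks possible cross-hybridization, and 2 further ones that also name a predicted gene were left out. Shmt2, which makes glycine from serine in mitochondria, went from 1235 to 846 (-0.54), with -0.55, -0.49 and 0.02 at its other probe sets, and Mthfd2, which acts on the folate carrier next to it, had -0.30 and -0.25.
Gpt2, the mitochondrial alanine transaminase, had log2 ratios of -0.52, -0.62, -0.57 and -0.63 at its 4 probe sets, a close agreement between probe sets. Aldh18a1, which makes the precursor of proline, had -0.29 and, at 4 others, -0.09 to -0.42. Asns, which makes asparagine and is a standard readout of ATF4, had signals of 6946 and 6167 (-0.17) and 7613 and 6288 (-0.28), so that it differed less than any other of the 8 enzymes.

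The cytosolic aminoacyl-tRNA synthetases, which charge tRNA with amino acids, had a median log2 ratio of -0.16, the one nearest to 0 among the role groups. Only Wars, the tryptophanyl-tRNA synthetase, was lower by more than 2-fold of the 12, from 276 to 128, which is 2.16-fold. Its other probe sets went from 662 to 334, from 390 to 190 and from 191 to 112, with log2 ratios of -0.98, -1.04 and -0.77. The call of Wars was lost with the mean of its probe sets (-0.98), with its brightest probe set (-0.98) and with scaling to the poly-A controls (-0.93). Wars is known to be induced by interferon as well as by ATF4.
Lars (-0.52), Eprs (-0.51, and -0.62, -0.43 and -0.26 at its other probe sets), Gars (-0.34) and Sars (-0.29 and -0.26) had lower signals on the log2 scale. Mars (-0.17), Tars (-0.15), Yars (-0.13), Nars (-0.06 and -0.11) and Cars (-0.01 and 0.06) were nearer to the median of all genes (0.05). At the representing probe set each of these was still below that median. Iars, with signals of 1546 and 1676, and Aars, with 1613 and 2009, were the synthetases with log2 ratios above 0, at 0.12 and 0.32. Both probe sets of Aars gave 0.32. One further probe set that names Aars together with a neighbouring gene was left out. The annotations of Mars and Ddit3 overlap by 71 bases on chromosome 10, where Ddit3 lies from 127290793 to 127296291 and Mars from 127296221 to 127311786.

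**Figure D3:**
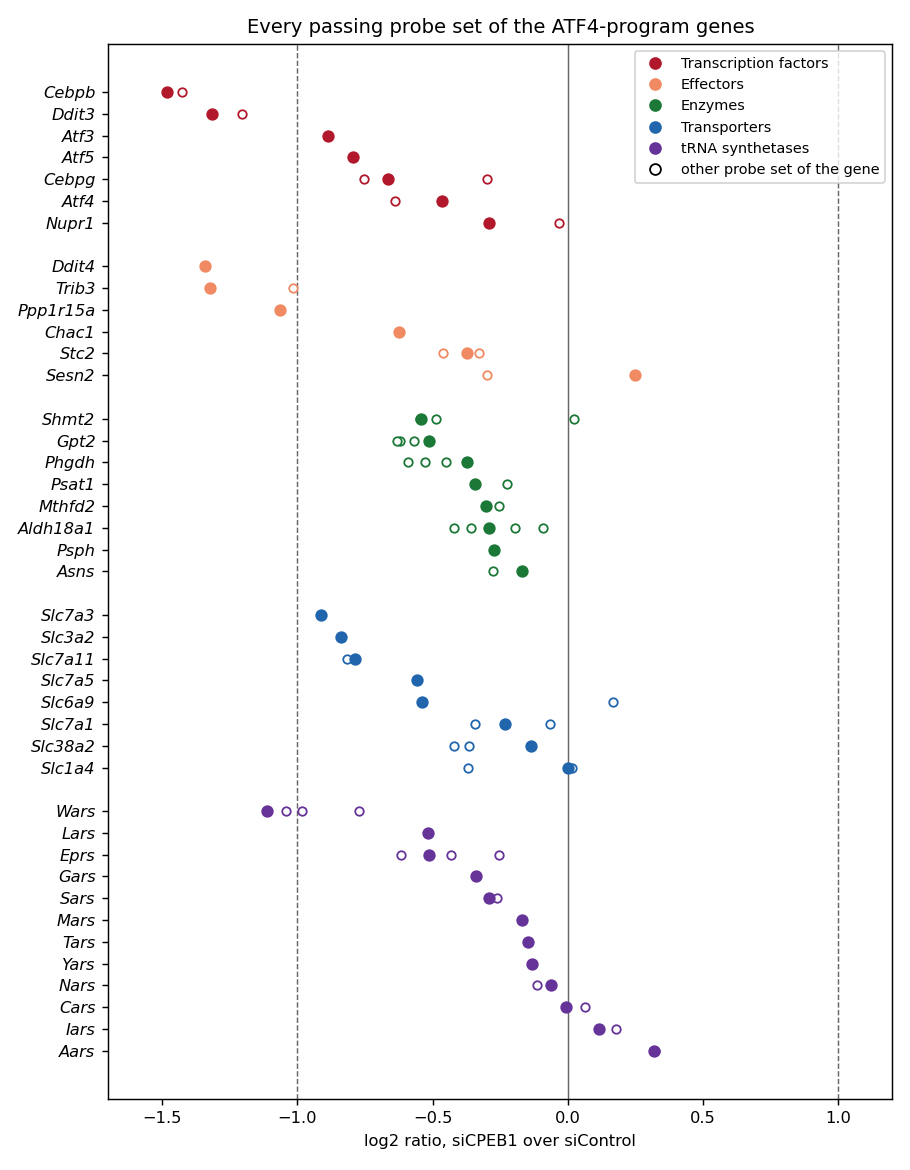
Log2 ratio of siCPEB1 over siControl (x axis) at each of the 86 probe sets of the members that passed the signal filter, with the probe set that represents the gene filled and the others open, and dashed lines at 2-fold. All probe sets of Cebpb, Ddit3 and Trib3 lie past the lower line, those of Gpt2 lie close together, and those of Sesn2, Slc6a9 and Shmt2 lie on both sides of 0.

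The probe sets of 1 gene gave a measure of the technical spread within these arrays. Of 86 passing probe sets of members, 76 had a log2 ratio below 0, 10 were lower by more than 2-fold and none was higher, whereas of all 23655 passing probe sets 48% were below 0, 4.04% lower and 4.49% higher. In 34 of the 41 members every passing probe set was below 0. Probe sets of the same member differed with a pooled SD of 0.17 on the log2 scale, and over all 5531 genes with more than 1 passing probe set the pooled SD was 0.37. The differences of Cebpb, Ddit3, Ddit4, Trib3, Ppp1r15a and Wars exceed both values. Those of the enzymes Psat1, Mthfd2, Aldh18a1, Psph and Asns are smaller than the larger value. The same holds for the synthetases Gars, Sars, Mars, Tars, Yars, Nars, Cars, Iars and Aars. It also holds for Nupr1, Sesn2, Slc7a1, Slc38a2 and Slc1a4. The spread between cultures is in neither value.

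Synthetases outside the program had medians close to 0 as well. The 10 measured genes of the other cytosolic synthetases and the scaffolds of the synthetase complex had a median log2 ratio of -0.18, and none was past 2-fold. The brightest by mean signal, Kars and Eef1e1, had signals of 2791 and 2952 (0.08) and of 2151 and 2068 (-0.06). Rars, which was brighter than Eef1e1 in siControl only, had 2346 and 1666 (-0.49), the lowest ratio of this list. Of 16 mitochondrial synthetases, 1 was lower by more than 2-fold, Mars2, from 49.5 to 19.1, where the siCPEB1 signal lies below the array median, and the median was -0.04. The core TGATGNAA was found in the windows of 5 of 8 synthetases of the program, Gars, Iars, Yars and Tars among them, in 0 of 7 of the other cytosolic list and in 0 of 14 of the mitochondrial list. The synthetases with the core had log2 ratios from -0.34 to 0.32.
Members with and without the core were also set side by side. The 12 measured members with the core in the window had a median log2 ratio of -0.23, from -1.32 in Trib3 to 0.32. The 23 without it had a median of -0.46, from -1.48 in Cebpb to 0.25 in Sesn2. The ranges overlap. The sets also differed in role, since 5 of the 12 with the core were synthetases, the role group with the median nearest to 0. Among the 23 without it, the synthetases were Mars, Sars and Eprs. These medians therefore do not separate the core from role, and a difference within a role was not tested. Among the members past 2-fold the core was found in Trib3, it was not found in the windows of Cebpb, Ddit3, Ddit4 and Ppp1r15a, and for Wars no window was at hand. The window of Ppp1r15a held the cyclic AMP response element TGACGTCA, which 2.03% of genes did and no other member:
Ppp1r15a, chr7:45526263-45526290, minus strand: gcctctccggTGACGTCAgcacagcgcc

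**Figure D4:**
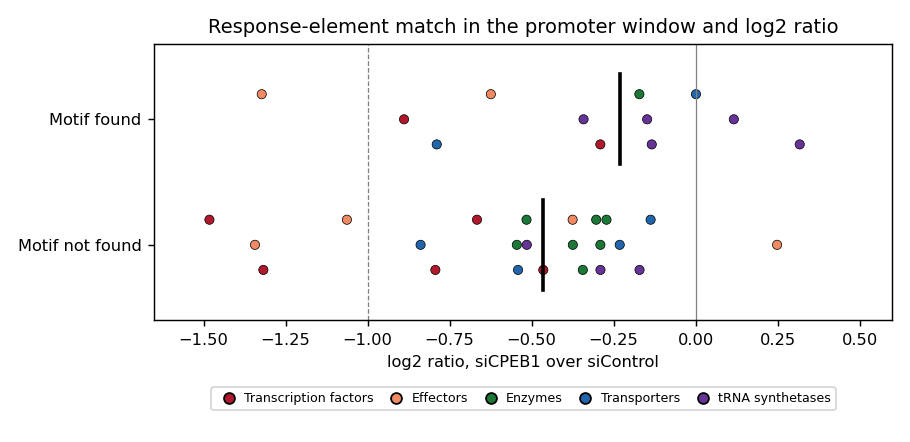
Log2 ratio of siCPEB1 over siControl (x axis) of the 35 measured members with a promoter window, divided by whether the core of the C/EBP-ATF response element was found in it, with points coloured by role (height within a row has no meaning), a dashed line at 2-fold and black bars at the medians. The points with the motif run from -1.32 to 0.32 and those without it from -1.48 to 0.25.

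Upstream of ATF4, the 16 measured genes of eIF2 kinases, eIF2, eIF2B and phosphatase subunits had a median log2 ratio of 0.05 and none past 2-fold, with values on both sides of 0. Eif2ak3, which encodes the kinase PERK, went from 386 to 234 (-0.72). Eif2s3x, a subunit of eIF2, had log2 ratios of -0.65, -0.49 and -0.60 at its 3 probe sets. Eif2b2, a subunit of the exchange factor eIF2B, had 0.81, 0.45 and 0.05. The brightest were Eif2s2, a subunit of eIF2, with 6518 and 6032 (-0.11), and Ppp1cc, a phosphatase catalytic subunit, with 3686 and 4411 (0.26). Of the 23 measured genes of a further list of reported ATF4 or CHOP targets, 6 were lower by more than 2-fold and none was higher, and the median was -0.52. Gadd45a, a growth arrest gene, went from 528 to 115, which is 4.60-fold lower. Aldh1l2, a mitochondrial enzyme of folate metabolism, went from 1431 to 626, and Got1, the cytosolic aspartate transaminase, from 1624 to 782. Lonp1, a mitochondrial protease, was 2.06-fold lower. Ndrg1, which is also induced by hypoxia, went from 83.4 to 15.9 and had log2 ratios from -1.14 to -1.85 at 4 other probe sets. Ero1l, an oxidase of the endoplasmic reticulum that CHOP induces, had log2 ratios of -2.55, -1.94 and -2.74. This list was written with some of these ratios known.
By median, the neighbouring stress programs stood between the ATF4 list (-0.37) and all genes (0.05). The endoplasmic reticulum list lay close to the ATF4 list. Its 19 measured genes, chaperones and other XBP1 and ATF6 targets, had a median log2 ratio of -0.33. Of these 19, 15 were below 0 and 11 lay in the lowest 25% of all genes. The 1 past 2-fold was Edem1, which helps to remove misfolded glycoproteins (725 to 312, and 525 to 207 at its other probe set). The 20 measured hypoxia-inducible genes had a median of -0.17, with 12 below 0 and 1 higher by more than 2-fold in ratio, Egln3, whose siControl signal of 9.43 lies below the array median. A gene can belong to more than 1 of these programs. Ndrg1, for example, described above as also induced by hypoxia, was counted among the ATF4 or CHOP targets and not here. The median of the hypoxia list therefore depends on how such genes were placed.

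**Figure D5:**
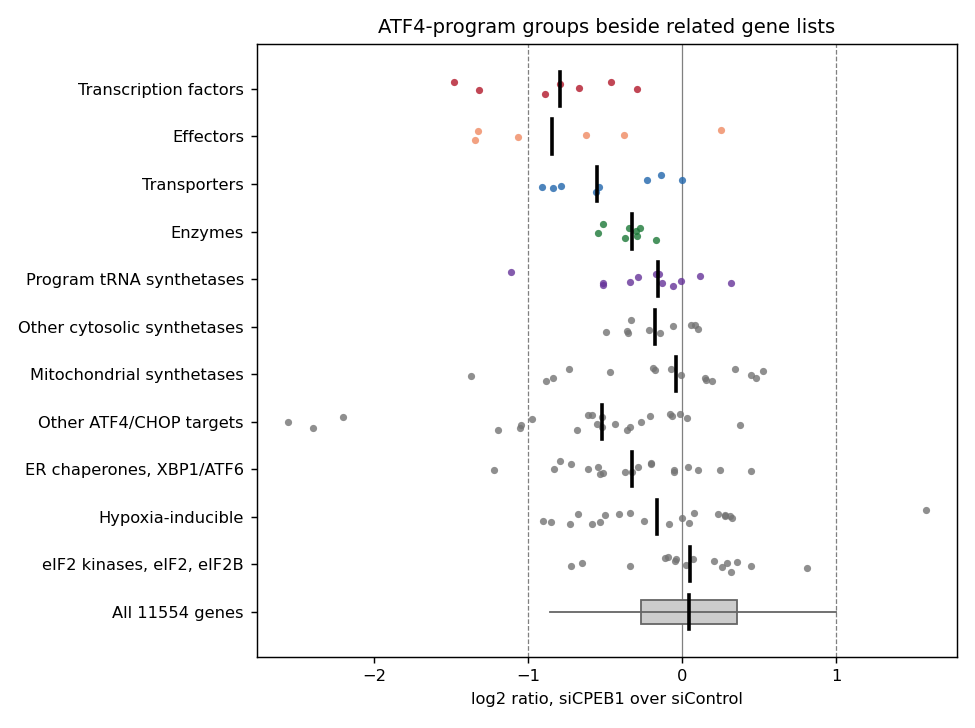
Log2 ratio of siCPEB1 over siControl (x axis) of each measured gene of the 5 role groups (coloured) and of 6 related lists (grey), with black bars at the medians (height within a row has no meaning). For all 11554 genes the box spans the lower to the upper quartile (-0.27 to 0.36) and the line the central 90%. The medians of the transcription factors and effectors (-0.79 and -0.84) lie farthest below that of all genes (0.05), and that of the eIF2 list (0.05) lies closest to it.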

How the data were processed

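Labelled RNA of 1 siControl and 1 siCPEB1 culture was hybridized to 1 array each. The authors computed MAS5 signals in Affymetrix Expression Console (no version given), so each deposited number is the linear intensity of a probe set, with a scaling target not given in the sources used here. No detection flags were used. Ratios (siCPEB1 to siControl, on the log2 scale) were computed with no further scaling. Of 45037 probe sets other than controls, 34957 had 1 symbol in the platform annotation, 920 had several and 9160 had none listed. Symbols were updated through gene identifiers (GRCm38.p6). A gene was represented by its brightest passing probe set, with _x_at and _s_at types taken only where it had no other. Genes were named by a fixed rule: all members, Cpeb1, and of other lists up to 6 past 2-fold or the 2 brightest. The cell type markers, Eif2ak3, Eif2s3x, Eif2b2 and Rars were named outside this rule, after their values were seen. The members and lists were chosen with earlier results of these data known. The steps were tested on simulated data, and other scalings, filters, probe set choices and thresholds were tried. Figures were drawn with matplotlib 3.10.9, loess was fitted with statsmodels 0.14.6, and tables were handled with pandas 2.3.3 and numpy 2.4.6 in Python 3.11.15. Precision is limited by having 1 array in each condition. The sequence of 1 promoter window is not reported here.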

Additional observations from a re-analysis of the deposited data

How the results depend on the processing

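No paired analysis was possible because each condition has 1 array. Scaling to equal medians or 75th percentiles, quantile normalization, loess (span 0.3), 16 added to both signals, 3 other filters on signal and 3 other choices of probe set gave 5 or 6 members lower by more than 2-fold and none higher. The member lost was Wars, where passing probe sets were averaged or the brightest was taken whatever its suffix. Of the results compared, only the count at another threshold moved beyond the limits set: with 1.5-fold as the threshold 13 members were lower (10.8% of all genes), and with 3-fold 0 were (0.840% of all genes). An alternative chosen after the data were seen scaled the arrays to the poly-A controls. It moved the median of all genes to 0.22 and that of the members to -0.20, left 4 members past 2-fold (Cebpb, Ddit3, Ddit4 and Trib3) and 30 of 41 below 0, and brought the median of the program's synthetases to 0.02. Relative to the median of all genes, the members' median lay between -0.46 and -0.40 in all alternatives. Scaling an array by a constant factor shifts both medians alike, and another threshold leaves them as they are. Those alternatives could therefore hardly change this difference. Counts were called moved past a 1.5-fold change or where they fell to 0, and the fall from 6 to 4 members lay exactly at that limit. Medians and single ratios were called moved past 0.37, the SD between probe sets of a gene, since no replicate gives a spread. This limit is about as wide as the members' median with no further scaling (-0.37). That median could thus have come near 0 without being called moved, so the limit says little about how stable the medians are. That SD holds no spread between cultures, and a log2 ratio under that SD was not distinguishable at this precision.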
